A study of Mus musculus with 6 samples.

Results

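A set of 9 genes of the SIX-EYA-PAX network of muscle development was followed in *Phf2* KO and control C2C12 cells: *Six2*, *Six4*, *Six5*, *Eya1*, *Eya2*, *Eya3*, *Eya4*, *Pax3* and *Pax7*. They were found by gene symbol, and these 9 genes made up 9 of the 55401 rows of the gene count matrix. C2C12, a line of mouse myoblasts, forms myotubes once serum is lowered, and polyadenylated RNA was sequenced from cells at 2 d post differentiation, with 3 libraries in each group. The *Phf2* KO cells had received Cas9 and a mixture of 4 guides against *Phf2*, which encodes a histone demethylase of the PHD finger family, and were kept as a pool of sorted cells and not as a single clone. The control cells had received the same plasmid without a *Phf2* guide, and are named wild type in the sample titles. Both groups share the cell line, the transfection and sorting, and the differentiation medium with 2% horse serum. Each group came from 1 pool, and the libraries are wells of a single experiment, so the p-values measure the spread between wells. A difference between pools and an effect of *Phf2* cannot be told apart in this design.

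The SIX-family proteins are homeodomain transcription factors that bind a short sequence called MEF3 in the control regions of muscle genes, such as that of *Myog* (myogenin, a transcription factor of muscle differentiation). The EYA proteins do not bind DNA themselves and act as coactivators of SIX-family proteins, and they also carry phosphatase activity. PAX3 and PAX7 are paired-box transcription factors of muscle progenitors, and PAX7 is the classical marker of satellite cells, the stem cells of adult muscle. In the embryo the 3 families act upstream of MYOD1, MYF5 and MYOG, the myogenic regulatory factors.

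The MEF3 letters TCAGGTTTC were searched on both strands of 300-base RefSeq promoters (mouse build GRCm38.p6, 250 bases before the start of transcription to 50 after), because a SIX-family gene with such a motif is one for which promoter and expression data can be set side by side. Of the 9 genes, 6 had a promoter in the table (*Six2*, *Six4*, *Six5*, *Eya3*, *Eya4* and *Pax7*), and *Six4* was the 1 gene with a match. The known site of *Myog* is shown for comparison, and capitals mark the match, read on the opposite strand in *Six4*.
*Myog*, chr1:134289910-134289938, plus strand: agaggggggcTCAGGTTTCtgtggcgttg
*Six4*, chr12:73113326-73113354, minus strand: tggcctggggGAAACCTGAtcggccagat
The *Myog* match lay from -84 to -76 and the *Six4* match from -99 to -91, counted from the RefSeq start of that promoter. *Six4* had a second RefSeq promoter (chr12:73113376-73113675), in which neither the motif nor its core was found. In GENCODE M21 the *Six4* stretch lies in the 5′ untranslated part of the other *Six4* transcript. The letters occurred in 141 of 32851 promoters (0.429%), and those of the shorter core TCAGGTT, which the longer motif contains, in 4.07%. The E-box CAGCTG, a sequence bound by the myogenic regulatory factors, was found in 16.3% of all promoters. By gene, 18.3% of those with a promoter in the table had it. None of the promoters of these 6 genes held it. A match of letters is a description and does not show that a factor binds there.

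The label of the knockout was checked first. *Phf2* (chromosome 13, 48801750 to 48871119) had estimated counts of 5838, 5564 and 6092 in control replicates 1, 2 and 3 and of 2526, 1976 and 2612 in *Phf2* KO replicates 1, 2 and 3. All control values lay above all knockout values, and the log2 fold change was -1.37 (standard error 0.055). Library totals were between 52526109 and 67502788 estimated counts. An estimated count here is not a read: it stands for 75 covered bases, so that a full read pair gives about 4. A level of 3 read pairs, taken as the smallest that can be told from 0, equals 12 estimated counts, or 0.177 to 0.228 CPM (the count scaled to a common library size) depending on the library. This floor covers counting error only. Of 17310 genes tested with edgeR's quasi-likelihood test, 6.48% passed a Benjamini-Hochberg adjusted p of 0.05, with 3.22% higher and 3.26% lower in *Phf2* KO cells, and 25.1% had no overlap between the 2 groups of libraries. The 9 muscle markers were all lower in *Phf2* KO cells, 5 of them past the threshold, and their sum was 6245 to 7464 CPM in control and 4986 to 5398 CPM in *Phf2* KO libraries. In bulk RNA, fewer cells of a type and less RNA per cell cannot be told apart. Of markers of other cell types, the fibroblast genes *Thy1*, *Dpp4* and *Col15a1* had a count of 0 in every library, and so did *Plin1*, *Adgre1*, *Sox2* and *Sox10*, which mark adipocytes, macrophages and neural cells. Others of these lists were expressed. The fibroblast genes *Ly6a* and *Pdgfra* had means of 120.4 and 42.4 CPM in control and of 100.3 and 46.6 CPM in *Phf2* KO cells. *Pparg* had means of 5.32 and 5.13 CPM in control and *Phf2* KO cells, and *Cd68* lay between 1.33 and 1.88 CPM in all libraries. The neural marker *Tubb3* fell from 7.99 to 5.19 mean CPM (log2 fold change -0.62, edgeR quasi-likelihood adjusted p = 0.0445), and its part in the results below was not tested. *Tubb3* did not pass with exactTest (adjusted p = 0.0502) or limma-voom (0.0819), nor in edgeR's fit when control replicate 1 (0.103) or 2 (0.244) was omitted, or *Phf2* KO replicate 1 (0.0603), 2 (0.108) or 3 (0.185). The whole fibroblast list, 2 of whose 5 genes (*Ly6a* and *Pdgfra*) were tested, summed to 130.2 to 198.3 CPM in control and 130.9 to 167.8 CPM in *Phf2* KO libraries.

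In *Phf2* KO cells, none of these regulators passed the threshold. Of the 9 genes, 6 passed the filter on low counts and were tested (*Six4*, *Six5*, *Eya1*, *Eya3*, *Eya4* and *Pax7*), and 0 of the 6 had an adjusted p under 0.05 in edgeR's quasi-likelihood test, against 6.48% of all genes tested. The smallest unadjusted p of the 6 in the same test were 0.00538 for *Six4* and 0.0203 for *Eya4*. Their groups of libraries were also the 2 of 6 that did not overlap, against 25.1% of all genes. The count past the threshold was 0 with edgeR's exactTest and with limma-voom, and 1 (*Six4*) with DESeq2, with the replicate block and without the filter on low counts. On the log2 scale the fold changes ran from -0.20 for *Six4* to 0.17 for *Pax7*, 4 above 0 and 2 below. Their median size without regard to sign was 0.14, beside 0.13 for all genes tested. The summed level of the 9 genes was 252.6 to 270.5 CPM in control and 259.1 to 269.2 CPM in *Phf2* KO libraries.

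**Figure D1:**
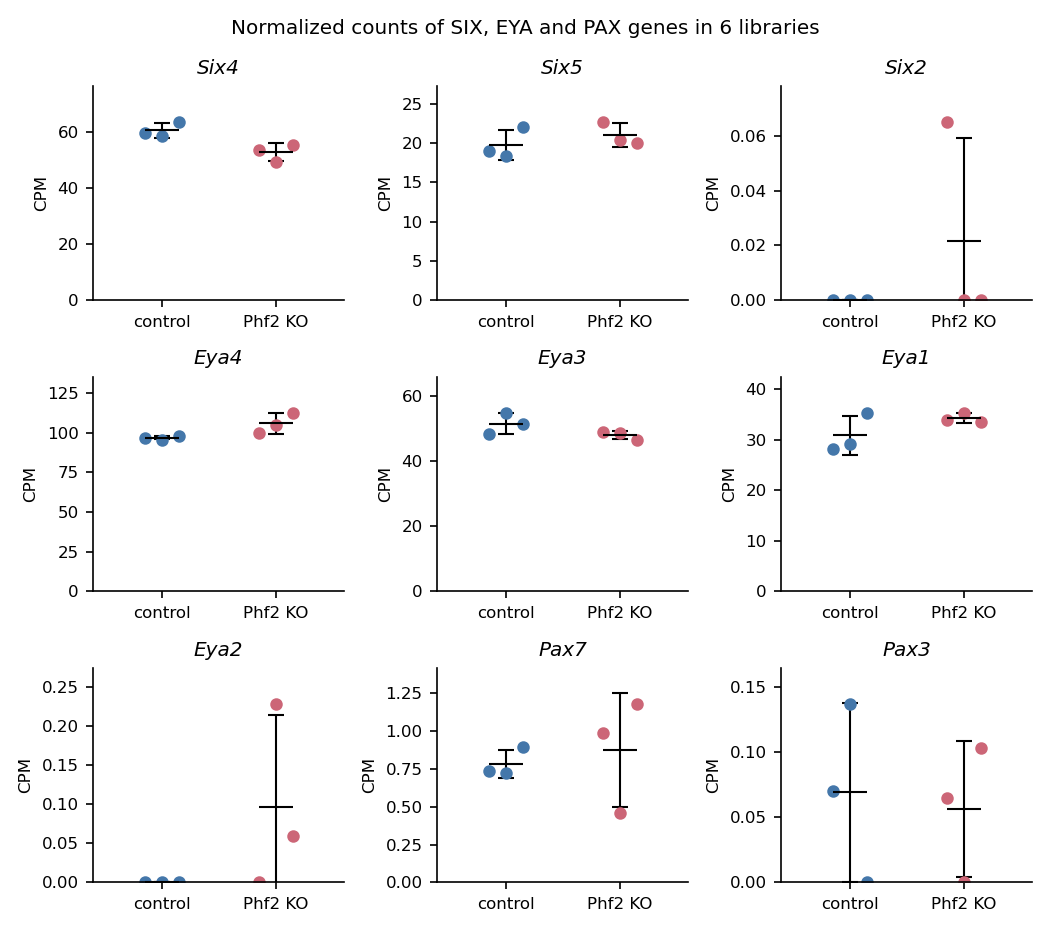
TMM-normalized counts (CPM, vertical axes, each from 0 with its own scale) of the 9 genes in control and *Phf2* KO libraries; points are single libraries, bars the mean and whiskers 1 SD (n = 3 per group, whiskers cut at 0). *Six4* shows 3 lower and *Eya4* 3 higher *Phf2* KO points, and *Six2*, *Eya2* and *Pax3* lie at or near 0.

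Ranked by TPM, which divides by transcript length and so allows levels of different genes to be compared, *Eya4* was the most abundant of the 9, with a mean of 40.5 TPM over the 6 libraries. *Eya3* followed with 21.1 TPM, and every library had more *Eya4* (31.3 to 61.5 TPM) than any had *Eya3* (20.1 to 22.5 TPM). *Six4*, *Six5* and *Eya1* came next at mean levels of 15.2, 14.7 and 13.7 TPM. The ranges of these 3 genes overlapped, so their order is not resolved by these libraries. *Pax7* had a mean of 0.304 TPM, and *Eya2*, *Pax3* and *Six2* had means of 0.225, 0.0142 and 0.00998 TPM.

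Among the SIX-family genes, *Six4* was the one with the smallest p. *Six4* (ENSMUSG00000034460, chromosome 12, 73099609 to 73113456, minus strand) encodes a SIX-family protein that binds MEF3 and takes part in muscle formation. Its normalized level was 59.6, 58.4 and 63.6 CPM in control replicates 1, 2 and 3 and 53.7, 49.2 and 55.4 CPM in *Phf2* KO replicates 1, 2 and 3. Each *Phf2* KO library lay below each control library. The means were 60.5 ± 2.75 CPM (SD, n = 3) and 52.8 ± 3.20 CPM (SD, n = 3), a ratio of 0.873 with a 95% interval of 0.799 to 0.954. The log2 fold change was -0.20 (standard error 0.059), and the adjusted p was 0.0692 (edgeR's quasi-likelihood test, Benjamini-Hochberg). The adjusted p of *Six4* was 0.0363 with the replicate block, in which libraries with the same number are treated as paired, 0.0408 with DESeq2 and 0.0395 without the filter on low counts. With any 1 library left out it was between 0.0755 and 0.265. The sum of the muscle markers was also lower in all 3 *Phf2* KO libraries, and its part in the *Six4* values was not tested.

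In TPM the *Six4* difference was smaller and the groups overlapped. *Six4* had 15.7, 15.9 and 14.6 TPM in control replicates 1, 2 and 3 and 13.9, 14.0 and 17.0 TPM in *Phf2* KO replicates 1, 2 and 3. The third *Phf2* KO library, which was the highest of that group in CPM too, was here the highest of all 6. The log2 fold change of *Six4* was -0.04 on the log2(TPM + 1) scale, with an adjusted p of 0.898 from limma. CPM here scales with the covered bases of the gene and is not divided by length, while TPM is divided by transcript length. The annotation gives *Six4* 2 transcripts of 6402 and 6817 bases over 10855 bases of exon. Whether the transcripts are used differently was not tested.

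**Figure D2:**
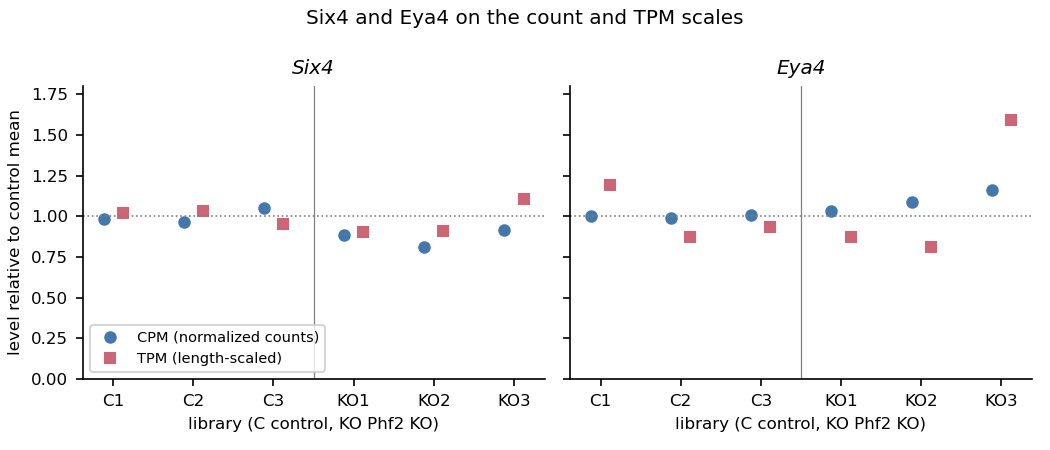
Level of *Six4* (left) and *Eya4* (right) in each library relative to the control mean (vertical axis, 1 is the control mean), as CPM (circles) and as TPM (squares); C is control and KO is *Phf2* KO. For *Six4* the circles fall below 1 in all 3 *Phf2* KO libraries while the square of the third lies above it, and for *Eya4* the squares scatter more widely than the circles.

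*Six5* (chromosome 7, 19094594 to 19098549, plus strand) encodes a SIX-family protein expressed in muscle and many other tissues. It had 19.0, 18.4 and 22.0 CPM in control replicates 1, 2 and 3 and 22.7, 20.4 and 20.0 CPM in *Phf2* KO replicates 1, 2 and 3. The groups overlapped, and the fold change on the log2 scale was 0.09 (standard error 0.091, 95% interval -0.11 to 0.28, edgeR quasi-likelihood adjusted p = 0.682), so that a change of the size seen in *Six4* lies inside the interval in the upward direction but not in the downward one. *Six2* (chromosome 17, 85684277 to 85688274), known for its role in kidney progenitors, had a count of 4 in *Phf2* KO replicate 1 and 0 in the other 5 libraries, which is below the floor of 12 and allows no comparison.

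*Mnat1*, a neighbour of *Six4* at 10261 bases on the opposite strand, had a log2 fold change of 0.04 and an adjusted p of 0.794 (edgeR's quasi-likelihood test).

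Among the EYA coactivators, *Eya4* was the most abundant and the other gene whose groups did not overlap in CPM. *Eya4* lies on chromosome 10, 23102963 to 23350786, on the minus strand. It had 96.9, 95.6 and 97.5 CPM in control replicates 1, 2 and 3 and 99.8, 105.0 and 112.5 CPM in *Phf2* KO replicates 1, 2 and 3. The control libraries were close together, with a coefficient of variation of 1.01%, and the *Phf2* KO libraries were all above them with a coefficient of variation of 6.03%. The ratio of *Phf2* KO to control was 1.09 with a 95% interval of 1.02 to 1.18. The log2 fold change was 0.13 (standard error 0.049) and the adjusted p was 0.156 (edgeR's quasi-likelihood test), with a range of 0.0805 to 0.433 when 1 library was left out. On the TPM scale *Eya4* had 46.2, 33.6 and 36.2 in control and 33.8, 31.3 and 61.5 in *Phf2* KO replicates 1, 2 and 3. These groups overlapped, and the coefficients of variation were 17.1% and 39.6%. The annotation gives *Eya4* 8 transcripts between 440 and 5304 bases long, and the part that their lengths play in the TPM spread was not tested.

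*Eya3* (chromosome 4, 132638987 to 132724765, plus strand) is expressed widely, outside muscle as well. Its level was 48.2, 54.7 and 51.3 CPM in control and 48.8, 48.5 and 46.5 CPM in *Phf2* KO replicates 1, 2 and 3. Control replicate 1 was lower than 2 of the *Phf2* KO libraries, so the groups overlapped. On the log2 scale the fold change was -0.10 (standard error 0.060, 95% interval -0.23 to 0.03, edgeR quasi-likelihood adjusted p = 0.398). *Xkr8* lies on the opposite strand with its 3′ end 132 bases from that of *Eya3*, and had a log2 fold change of -0.32 with an adjusted p of 0.247.

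*Eya1* (chromosome 1, 14168954 to 14310235, minus strand) is the EYA gene best known from the development of muscle, kidney and ear. It had 28.1, 29.2 and 35.2 CPM in control and 34.0, 35.3 and 33.4 CPM in *Phf2* KO replicates 1, 2 and 3. Control replicate 3 stood with the *Phf2* KO libraries, and the other 2 control libraries lay below all of them. For *Eya1* the log2 fold change was 0.15 (standard error 0.082, 95% interval -0.03 to 0.33, edgeR quasi-likelihood adjusted p = 0.353). Without control replicate 3 it was 0.25 (adjusted p = 0.0638 in edgeR's fit), without control replicate 1 it was 0.09 (0.707) and without control replicate 2 it was 0.11 (0.667).

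*Eya2* (chromosome 2, 165595032 to 165771727) had a count of 0 in the 3 control libraries and in *Phf2* KO replicate 1, 12 in *Phf2* KO replicate 2 and 4 in *Phf2* KO replicate 3. The highest of these is at the floor, and no fold is given. The TPM of *Eya2* was 1.34 in *Phf2* KO replicate 2 and 0.00974 in *Phf2* KO replicate 3, a far wider gap than between the counts. Its annotated transcripts run from 369 to 2460 bases. *Slc2a10*, a glucose transporter gene 75115 bases from *Eya2* on the same strand, was past the threshold, as no other neighbour reported here was, with a log2 fold change of -1.15 and an adjusted p of 0.0343 (edgeR's quasi-likelihood test). The estimated counts of *Slc2a10* were low, with a sum of 395 over all libraries, and its call was not followed in the alternative fits.

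Shares within the EYA family did not separate the groups in TPM. *Eya4* held 52.7% ± 4.60 of the summed EYA TPM in control and 52.9% ± 8.85 in *Phf2* KO libraries (SD, n = 3). *Eya3* held 29.7% ± 3.65 and 27.3% ± 5.99, and *Eya1* 17.6% ± 2.29 and 19.2% ± 3.15. The exact permutation p was 1.0 for *Eya4* and 0.6 for *Eya3* and *Eya1*, with every adjusted p at 1.0 over the 16 TPM measures computed. Without *Phf2* KO replicate 3, the difference in the *Eya4* share went from 0.132 to -4.96 percentage points. On counts per kb of exon the *Eya3* share was 39.0% ± 1.78 in control and 35.2% ± 1.51 in *Phf2* KO libraries and the ratio of *Eya4* to *Eya3* was 1.13 ± 0.079 and 1.32 ± 0.12 (SD, n = 3). In both cases the groups did not overlap, with an exact permutation p of 0.1, the smallest that 3 libraries against 3 can give, and an adjusted p of 0.467 over 14 such measures. On this scale *Six4* per *Eya4* was 0.543 ± 0.020 in control and 0.434 ± 0.031 in *Phf2* KO libraries (SD, n = 3). For this ratio between the families the exact permutation p and adjusted p were the same as above. Its groups could not overlap, because the CPM of *Six4* and of *Eya4* already separated them in opposite directions. The *Six4* to *Eya4* ratio therefore adds no evidence beyond the CPM values of each gene. In TPM this ratio was 0.406 ± 0.066 and 0.379 ± 0.090 (SD, n = 3), and the groups overlapped (exact permutation p = 0.7).

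**Figure D3:**
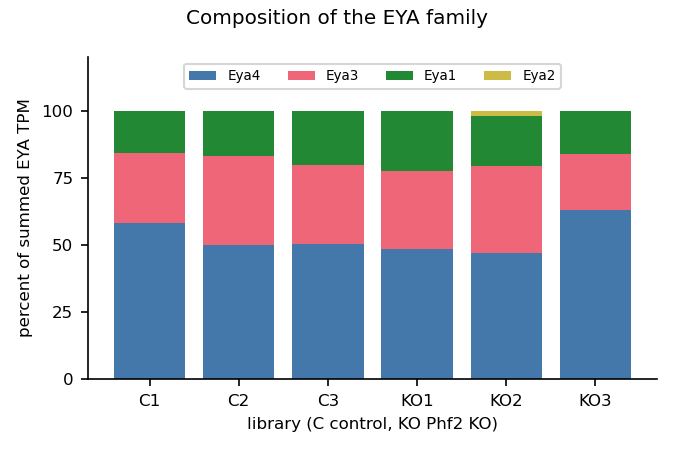
Percent of the summed TPM of the EYA genes (vertical axis) held by each gene in each library; C is control and KO is *Phf2* KO. *Eya4* takes 47.1% to 63.1% of the sum, with the highest value in *Phf2* KO replicate 3, and *Eya2* is visible in *Phf2* KO replicate 2 alone.

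The PAX genes were near the limit of detection. *Pax7* (chromosome 4, 139737062 to 139833528, minus strand) had estimated counts of 42, 42 and 52 in control and of 61, 24 and 80 in *Phf2* KO replicates 1, 2 and 3, all above the floor of 12. This is 0.736, 0.721 and 0.893 CPM and 0.992, 0.457 and 1.18 CPM. *Phf2* KO replicate 2 was the lowest and *Phf2* KO replicate 3 the highest of the 6 libraries, so the knockout group spanned the control group. The log2 fold change of *Pax7* was 0.17 with a standard error of 0.39, a 95% interval of -0.68 to 1.02 and an adjusted p of 0.878 (edgeR's quasi-likelihood test). The interval reaches from a ratio of 0.625 to 2.02, and without *Phf2* KO replicate 3 the log2 fold change was -0.11. *Pax3* (chromosome 1, 78101267 to 78197134) had counts of 4, 8 and 0 in control and 4, 0 and 7 in *Phf2* KO replicates 1, 2 and 3. All 6 values lie below the floor, and *Pax3* was not tested.

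**Figure D4:**
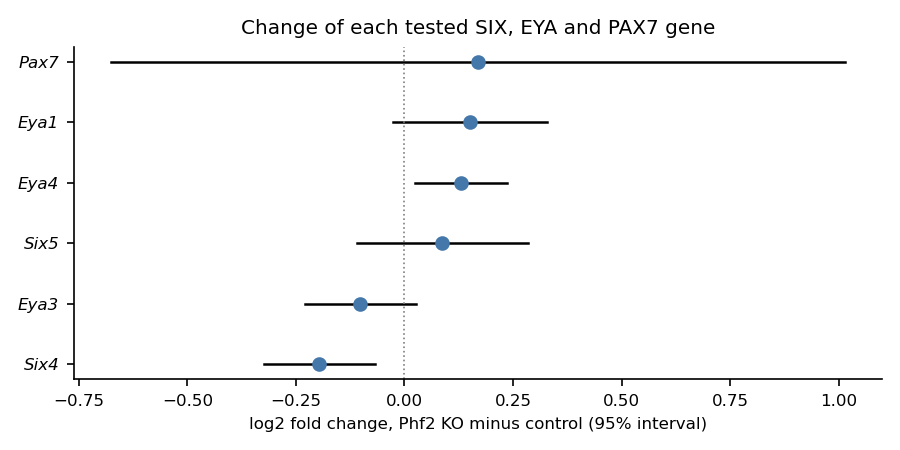
Log2 fold change, *Phf2* KO minus control (horizontal axis), of the 6 tested genes; points are edgeR estimates and lines 95% intervals. The intervals of *Six4* and *Eya4* do not cross 0 before adjustment, and that of *Pax7* runs from -0.68 to 1.02.

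Other genes of the same network were read from a list of 23, of which 13 were tested and 2 passed the threshold, 1 higher and 1 lower, beside 3.22% and 3.26% of all genes. With edgeR's exactTest and with DESeq2 the count was 3, of which 1 was higher and 2 lower. *Tbx1*, a T-box gene of head muscle, rose from 17.4 to 23.0 mean CPM (log2 fold change 0.40, standard error 0.099, edgeR quasi-likelihood adjusted p = 0.0269). *Myog* fell from 470.7 to 372.9 mean CPM (log2 fold change -0.34, standard error 0.071, adjusted p = 0.0221 in the same test). In limma on log2(TPM + 1) neither passed, with adjusted p of 0.180 for *Tbx1* and 0.115 for *Myog*, and in limma-voom *Tbx1* had an adjusted p of 0.0507. *Tbx1* did not pass without control replicate 1 (adjusted p = 0.108), control replicate 3 (0.0675), *Phf2* KO replicate 1 (0.0937) or *Phf2* KO replicate 2 (0.108) in edgeR's fit. *Myog* did not pass without control replicate 1 (adjusted p = 0.0796), control replicate 2 (0.0909), *Phf2* KO replicate 2 (0.0768) or *Phf2* KO replicate 3 (0.129). With 1 library left out the list's count was 0 (control replicate 1 or *Phf2* KO replicate 2 omitted) or 1 (each of the other libraries omitted).

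None of the other myogenic regulatory factors that the network feeds into passed the threshold in edgeR's quasi-likelihood test. *Myod1* had a mean of 86.8 CPM in control and 76.8 CPM in *Phf2* KO cells (log2 fold change -0.18, edgeR quasi-likelihood adjusted p = 0.0679, without overlap of the groups). With DESeq2 *Myod1* passed (adjusted p = 0.0396), but not with exactTest (0.105) or limma-voom (0.108). *Myf5* had 35.2 and 38.8 CPM (log2 fold change 0.14, adjusted p = 0.282 in edgeR's quasi-likelihood test). *Myf6*, at 0.340 and 0.135 CPM, had a log2 fold change of -1.33 with a standard error of 0.88 and an adjusted p of 0.462 (edgeR's quasi-likelihood test), without overlap of the groups. The *Myf6* counts were 20, 15 and 24 in control and 0, 12 and 12 in *Phf2* KO libraries. None of the latter exceeds the floor of 12, so the size of this fold is not resolved. The largest change of the list was in *Msx2*, a homeobox gene expressed at 0.639 and 0.186 CPM, with a log2 fold change of -1.77, an adjusted p of 0.0624 in edgeR's quasi-likelihood test and 0.0173 in its exactTest. The *Msx2* counts were 30, 48 and 33 in control and 14, 8 and 12 in *Phf2* KO libraries. The latter lie at or near the floor, so the size of this fold is not resolved either. The other tested genes of the list, which did not pass, were *Sobp*, *Pax5*, *Pax6*, *Lbx1*, *Meox1*, *Msx1* and *Pitx3*, and *Pax2* and *Pax9* were too low to be tested. Counts were 0 in every library for *Six3*, *Dach1*, *Dach2* (partners of SIX-family and EYA proteins in other tissues), *Pax1*, *Pax4*, *Pax8* and *Meox2*. The eye gene *Six6* had counts of 0, 0 and 0 in control and 9, 10 and 9 in *Phf2* KO libraries, all below the floor of 12, and gets no fold.

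Genes reported to be regulated by SIX-family proteins were mostly lower in *Phf2* KO cells. Of 14 such genes, all tested, 10 passed in edgeR's quasi-likelihood test (9 lower and 1 higher), against 6.48% of all genes, and the list's median log2 fold change was -0.30, beside 0.11 for the 6 tested regulators and -0.001 for all genes. The list includes genes of fast muscle fibres, which other factors control as well, and 3 of its genes are also among the 9 muscle markers. The 5 largest differences were in *Myh4* (log2 fold change -1.10), *Myh1* (-0.93), *Myh2* (-0.89), *Ckm* (-0.78) and *Mylpf* (-0.40), which encode 3 fast myosin heavy chains, muscle creatine kinase and the fast myosin regulatory light chain. The adjusted p of *Myh4* was 0.0476, and it was 0.0657 with the replicate block. *Myh4* did not pass without control replicate 2 (adjusted p = 0.111) or without *Phf2* KO replicate 1 (0.169), 2 (0.162) or 3 (0.129), and *Mylpf* (0.0480) did not without control replicate 1 (0.205), control replicate 2 (0.108), *Phf2* KO replicate 2 (0.0840) or *Phf2* KO replicate 3 (0.218). Without the filter on low counts neither passed (0.106 for *Myh4* and 0.119 for *Mylpf*), with library size alone *Myh4* had an adjusted p of 0.0501, and in limma on log2(TPM + 1) 2 genes of the list did, *Myh1* and *Ckm*. The 1 gene that was higher was *Ccnd1*, the cell cycle gene cyclin D1, with a log2 fold change of 0.33 and an adjusted p of 0.0497 in edgeR's fit. *Ccnd1* did not pass with limma-voom (adjusted p = 0.0523), with the other scalings of library size (0.0516 to 0.0545), without the filter (0.0936), or without control replicate 1 (0.167), control replicate 2 (0.178), *Phf2* KO replicate 2 (0.167) or *Phf2* KO replicate 3 (0.202). The list's count dropped to 5 when control replicate 2, *Phf2* KO replicate 2 or *Phf2* KO replicate 3 was left out. A difference between this list and the 9 genes was not tested.

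Genes reported as targets of PAX3 or PAX7 gave 0 of 8 past the threshold in edgeR's quasi-likelihood test, beside 6.48% of all genes. Their smallest adjusted p in that test was 0.0515, and their median log2 fold change was 0.16. The count past the threshold was 1 with edgeR's exactTest, 1 with limma-voom and 2 with DESeq2, and it was 1 without control replicate 2 and 2 without control replicate 3. Of 16 satellite cell genes, 14 were tested and 3 fell, beside 3.26% of all genes: *Itga7*, a laminin receptor subunit, with a log2 fold change of -0.48, *Cdh15*, which encodes M-cadherin and is also a muscle marker here, with -0.36, and *Megf10*, a receptor of muscle progenitors, with -0.27. Their adjusted p values in edgeR's fit were 3.18e-05, 0.000237 and 0.00316. *Calcr*, a marker of quiescent satellite cells, and *Chrdl2* had a count of 0 in every library, alongside the low *Pax7* counts.

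**Figure D5:**
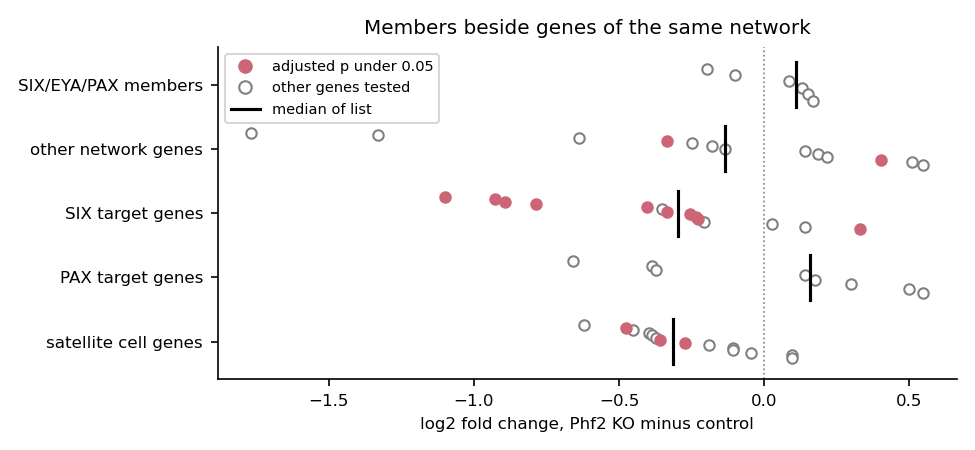
Log2 fold change, *Phf2* KO minus control (horizontal axis), of every tested gene of the 9 regulators and of 4 lists around them; filled points passed an adjusted p of 0.05 (edgeR), open points did not, and black bars are list medians. The regulators lie between -0.20 and 0.17 with no filled point, and the SIX-target list holds 10 filled points.

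Across all genes with MEF3 in a RefSeq promoter, 50 were tested and 5 passed the threshold (10%, 3 higher and 2 lower), beside 819 of 11338 tested genes with a promoter in the table (7.22%). The 5 were *Bmf*, *Mybpc1*, *Myog*, *Nrd1* and *Nxn*. *Six4*, with the match printed above, was among those that did not pass. Among the 10 SIX-target genes with a promoter in the table, *Myog* was the 1 with a match.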

How the data were processed

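RNA sequencing was analysed for 3 control and 3 *Phf2* KO libraries of C2C12 cells. Per the submitters' processing notes and the study's methods, the authors aligned paired reads with HISAT2 to mm10 and had StringTie estimate the counts; versions and annotation are not given in the sources used here. The estimated counts were deposited unscaled and as whole numbers. Per-library tables deposited beside them give TPM, a signal scaled by the authors to each library's total, of which the rows of reference genes were used, and coverage, the authors' mean depth per base, which served to work out that 1 count stands for 75 bases (other deposited columns were not used). Library totals bound the precision, and intervals do not cover differences between pools.

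Counts were fitted in R 4.3.3 with edgeR 4.0.16 (filterByExpr with a minimum count of 10, TMM, robust quasi-likelihood test, Benjamini-Hochberg adjustment over the 17310 genes tested, threshold 0.05), and the procedure was tested on simulated data. Shares and ratios were compared by two-sided exact permutation tests of the 6 libraries. Counts per kb are CPM divided by the length of all annotated exons. Groups and replicate numbers came from the sample titles. The deviations from the group means of libraries with the same number correlated at 0.250, 0.236 and 0.158 across 10923 genes. Those with different numbers correlated at -0.013 or below. Deviations within a group cancel for each gene, so the latter values are not separate evidence of a pairing. No source describes a pairing, so the main fit did not pair the libraries, and the replicate block was an alternative.

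The 9 genes and the lists were chosen with earlier results of these data known. Genes named are the 9, *Phf2*, neighbours where one passed the threshold, and of the network, SIX-target, PAX-target and satellite cell lists the genes past the threshold (at most 5, by size of change) and those at 0. A further 2 genes of the network are not reported here. *Six6*, the other network genes that did not pass, the markers, *Mnat1*, *Xkr8*, *Ccnd1*, the 5 genes with MEF3 and the ratios between genes were chosen after their values were seen. Alternatives were edgeR's exactTest, DESeq2 1.42.0, limma-voom (limma 3.58.1), limma on log2(TPM + 1) and log2(TPM + 0.1), DESeq2's size factors, upper-quartile factors, unadjusted library size, a minimum of 1 CPM in 3 libraries, no filter, counts divided by 4, the replicate block, a threshold of 0.01 and leaving out each library. Coordinates are those of GENCODE M21 (GRCm38, the assembly of mm10). Figures were drawn with Python 3.11.15 and matplotlib 3.10.9. No protein sequences were used here.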

Additional observations from a re-analysis of the deposited data

How the results depend on the processing

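The number of the 9 genes past the threshold went from 0 to 1 with DESeq2, without a filter and with the replicate block, each time *Six4*, and stayed 0 in the other alternatives and with any 1 library left out. The log2 fold change of *Six4* was -0.20 in these 3 fits. Among the 6 tested, only *Pax7* changed direction in any alternative, at -0.11 without *Phf2* KO replicate 3, and with 1 library left out its log2 fold change ranged from -0.11 to 0.47. *Pax7* was not tested at a CPM of at least 1. In the other network genes the count was 1 with limma-voom, 0 on both TPM scales and at a threshold of 0.01, and 0 to 1 with 1 library left out. In the SIX-target genes it was 2 with log2(TPM + 1), 4 with log2(TPM + 0.1), 5 at a threshold of 0.01, and 5 to 12 with 1 library left out. In the PAX target genes it was 1 with exactTest, limma-voom, upper-quartile factors, no filter, a CPM of at least 1 and counts divided by 4, 2 with DESeq2, and 0 to 2 with 1 library left out. In the satellite cell genes it was 6 with DESeq2 and 5 with upper-quartile factors, no filter, a CPM of at least 1 and counts divided by 4. The causes were not tested. Of the 9 genes, *Phf2* and the genes named from the lists, the replicate block changed the call of *Six4* and *Myh4* and of no other. The difference in the *Eya4* share ranged from -4.96 to 3.04 percentage points with 1 library left out. Over all genes, 916 to 1527 passed in the count-based alternatives with all libraries, 127 on log2(TPM + 1), 153 on log2(TPM + 0.1), 472 at a threshold of 0.01, and 468 (without control replicate 2) to 1039 with 1 library left out (577 and 613 when *Phf2* KO replicate 2 or 3 was the one omitted). Depth limits *Six2*, *Eya2*, *Pax3* and *Pax7*, whose counts were at most 80.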
